A study of Mus musculus with 4 samples.

Results

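Kitl, Kit, Cxcl12 and Cxcr4 encode a pair of ligands and their receptors, and they were followed through 5 cell classes of the XX mouse gonad over 4 days of development. All 4 genes were found among the 19321 gene symbols of the table, and each was read by its own symbol. KIT ligand, made by Kitl, binds the receptor tyrosine kinase KIT, and this pair is known for the survival, proliferation and migration of primordial germ cells. The chemokine CXCL12 binds the G protein-coupled receptor CXCR4 and is known as a cue that draws migrating germ cells to the gonad. In the fetal ovary, germ cells stop dividing and enter meiosis after they have settled, while supporting cells become pre-granulosa cells around them.

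The gonads came from C57BL/6 XX embryos of 4 stages (E11.5 and each following day up to E14.5), for which the labels give no genetic change or treatment, and 1 library was made per stage with the 10x 3′ kit, version 2. The number of embryos pooled is not given in the labels. Since each stage has 1 library, stage and library cannot be told apart, no difference was tested, and every 95% interval covers counting error only. Classes were read from transcripts, as unique molecular identifiers (UMIs) above 0. Germ cells held at least 3 of Dazl, Ddx4, Dnd1, Mael, Dppa5a and Mov10l1, and supporting cells at least 3 of Fst, Wnt4, Wnt6, Irx3 and Runx1. Interstitial cells held Col1a1 with Tcf21, epithelial cells Upk3b with Krt19 or Krt7, and endothelial cells Pecam1 with Cdh5.

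After filtering, 4794, 4737, 4746 and 4693 cells remained in stage order. Germ cells numbered 224, 596, 709 and 2271, and supporting cells 2113, 2119, 1712 and 652. Interstitial cells numbered 294, 209, 594 and 202, epithelial cells 602, 561, 390 and 344, and endothelial cells 132, 174, 86 and 36. Cells that met more than 1 rule numbered 179, 350, 448 and 559 and were kept apart, and 1132, 698, 752 and 371 cells met none of the rules. Check markers that the rules did not use followed the names for germ cells (5 markers summing to 1026 to 1223 CPM in germ cells and 5.29 to 19.1 CPM in the 4 somatic classes). They did so for supporting and endothelial cells as well, although Foxl2 stayed at 0.130 to 0.345 CPM in supporting cells. In the epithelial class Msln and Lhx2 were at most 2.43 CPM, and in the interstitial class Gli1 was at most 3.08 CPM, so these classes rest on their other markers. CPM here means UMIs of a gene divided by all UMIs of the class in that library, times 1000000, counted from transcript 3′ ends, and levels are not compared between genes.

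Kitl lies at chr10:100015630-100100416 on the plus strand of GRCm38, Kit at chr5:75574916-75656722 (plus), Cxcl12 at chr6:117168535-117181367 (plus) and Cxcr4 at chr1:128588199-128592293 (minus), per GENCODE M21. One coding exon decides what kind of ligand Kitl makes, so its sequence is shown. Exon 6 of the transcript Kitl-202, 84 coding bases at chr10:100080857-100080940 (plus), is absent from Kitl-201. The protein that includes this exon is known to be cut and released, while the form without it stays mostly on the cell surface. The 2 transcripts hold 819 and 735 coding bases. Counts from the 3′ end do not separate these forms, so every Kitl value below is their sum.
Kitl exon 6: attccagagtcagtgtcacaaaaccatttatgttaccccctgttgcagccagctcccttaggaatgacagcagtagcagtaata

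The stretches upstream of both receptor genes are shown because Kit and Cxcr4 were both lower in germ cells at E14.5 than at E13.5 (below). They end before the earliest annotated start and come from RefSeq windows of 300 bases on GRCm38.p6, at chr5:75574737-75574915 for Kit (plus strand, 179 bases) and chr1:128592300-128592549 for Cxcr4 (minus strand, 250 bases). Capitals mark matches to the motifs searched, on either strand.
Kit upstream: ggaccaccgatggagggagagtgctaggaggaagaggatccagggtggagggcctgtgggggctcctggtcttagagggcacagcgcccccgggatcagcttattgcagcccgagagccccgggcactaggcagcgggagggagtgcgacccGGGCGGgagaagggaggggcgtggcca
Cxcr4 upstream: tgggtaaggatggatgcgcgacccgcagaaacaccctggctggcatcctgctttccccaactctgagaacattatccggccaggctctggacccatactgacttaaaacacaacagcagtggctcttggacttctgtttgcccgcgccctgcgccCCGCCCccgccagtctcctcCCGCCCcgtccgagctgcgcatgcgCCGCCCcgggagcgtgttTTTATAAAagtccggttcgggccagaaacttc

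Among 32817 RefSeq promoter windows of the same length, 35.6% held the GC box GGGCGG, which had 1 match in the Kit window, 3 in Cxcr4, 3 in Kitl and 5 in Cxcl12. TATAAA was in 13.6% of all windows, with 2 overlapping matches, 1 on each strand, in Cxcr4, 1 match in Kitl and 0 in Kit and Cxcl12. CTTTGA, the TCF/LEF motif, was in 16.0% of windows and had 1 match, in Cxcl12. CCAAT (37.4% of windows), the E-box CACGTG (7.15%), GATAAG (7.45%), AAGGTCA (4.72%) and the FOXL2 motif GTCAAGG (3.18%) had 0 matches in the 4 windows. A match is only a description of letters, and no match says only that the letters are not in this window.

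Kitl, the ligand of the first pair, was highest in supporting cells at every stage. In stage order its level there was 239 CPM (95% interval 233 to 244), 423 CPM (415 to 430), 282 CPM (274 to 289) and 348 CPM (335 to 362). The E12.5 library held the highest value and the E11.5 library the lowest, and no pair of the 4 intervals overlapped. Epithelial cells held 39.3, 125, 93.3 and 145 CPM in stage order, endothelial cells 60.0, 106, 76.5 and 70.6 CPM, and interstitial cells 20.3, 30.4, 17.8 and 27.5 CPM. Germ cells were lowest, at 3.07, 5.68, 3.15 and 4.29 CPM. Endothelial cells ranked second at E11.5 and epithelial cells at E14.5, with intervals apart, while at E12.5 and E13.5 the intervals of the epithelial and endothelial classes overlapped.

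**Figure D1:**
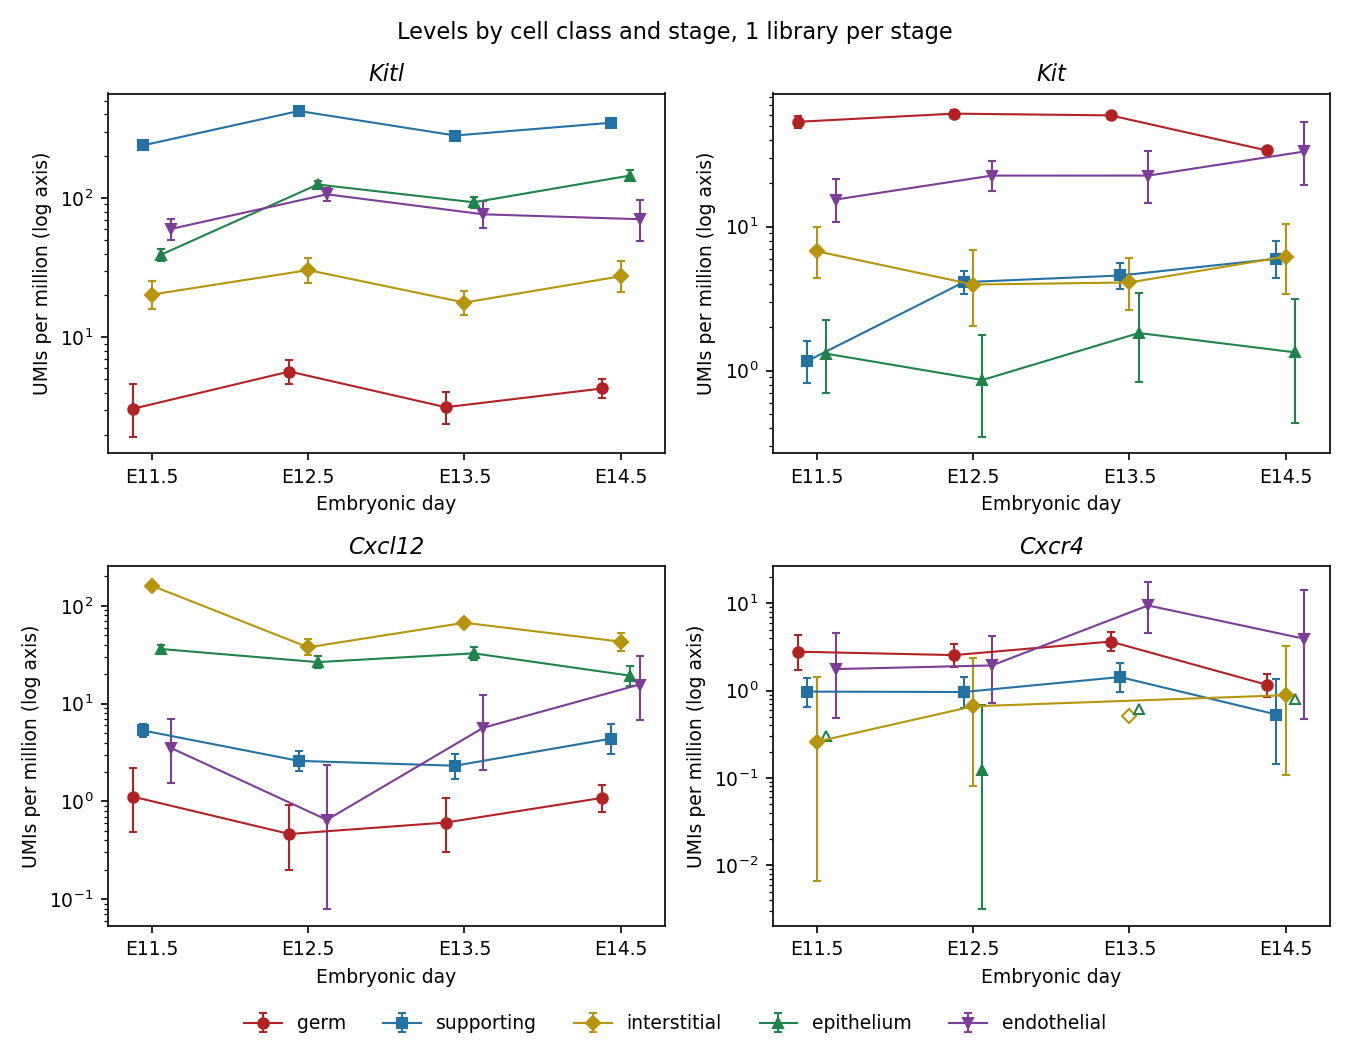
Levels of the 4 genes in CPM (log axis) by embryonic day, with 1 point per class and library, exact Poisson 95% bars, and open symbols at the floor of 3 UMIs where none was counted. Kitl was highest in supporting cells, Kit in germ cells up to E13.5, and Cxcl12 in interstitial cells, with 161 CPM in the E11.5 library and 43.0 CPM in that of E14.5, while Cxcr4 stayed below 10 CPM everywhere.

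Within each library, supporting cells exceeded interstitial cells in Kitl by 11.8-fold, 13.9-fold, 15.8-fold and 12.7-fold in stage order. The lead over epithelial cells was smaller and went from 6.08-fold at E11.5 through 3.37-fold and 3.02-fold to 2.39-fold at E14.5. Against the pooled somatic classes, germ cells were lower by 54.2-fold to 62.9-fold. Germ over somatic, Kitl was called lower in all 4 libraries. A call asks for at least 50 UMIs over both groups, at least 20 CPM in the higher group, a ratio of at least 2 and Poisson intervals that do not overlap. By the same rule 32.0%, 28.4%, 28.3% and 26.6% of all genes tested were called lower in germ cells at E11.5 to E14.5.

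Between E11.5 and E14.5 the level of Kitl in supporting cells differed by 0.54 on the log2 scale (95% interval 0.48 to 0.61), with a step of 0.82 (0.78 to 0.87) to E12.5, then -0.59 (-0.63 to -0.54) and 0.31 (0.24 to 0.37). None of these reached the ratio of 2. In epithelial, interstitial and germ cells, too, the E12.5 and E14.5 libraries lay above E11.5 and E13.5. Germ cells held 3.07, 5.68, 3.15 and 4.29 CPM in stage order. Their steps were 0.89 (0.21 to 1.63), -0.85 (-1.35 to -0.37) and 0.45 (0.003 to 0.91). From E11.5 to E14.5 the difference was 0.44 (-0.07 to 0.94) in interstitial and 0.48 in germ cells. In both, the level intervals of these stages overlapped. Endothelial cells differed, with 76.5 CPM at E13.5 and 70.6 CPM at E14.5, and overlapping intervals. In epithelial cells the difference from E11.5 to E14.5 was larger, 1.89 (1.70 to 2.08), and was called higher, as were 5.04% of all genes tested in that class, while 1.84% were called lower. The step from E11.5 to E12.5 alone was 1.67 and was called higher too, where 1.32% of genes were called higher and 0.404% lower. Markers of supporting cells in the epithelial class summed to 541, 392, 638 and 1228 CPM in stage order, and 19.7%, 32.3%, 48.3% and 53.1% of cells that met the epithelial rule also met another. The part of this overlap in the Kitl level was not tested. The same markers summed to 99.4, 62.4, 82.1 and 91.5 CPM in germ cells and 287, 145, 175 and 347 CPM in interstitial cells. In supporting cells they summed to 5260, 3401, 3872 and 4001 CPM. The part of free RNA from supporting cells in the Kitl levels and steps of germ and interstitial cells was not tested.

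The share of cells with a Kitl UMI was compared after each cell had been thinned to 5000 UMIs. In supporting cells it was 65.2%, 84.4%, 73.0% and 77.5% in stage order (unthinned 91.1%, 96.5%, 89.9% and 90.5%), and in epithelial cells 15.4%, 39.0%, 30.5% and 48.5%. Germ cells, which should lack Kitl, held 2.23%, 3.86%, 1.83% and 1.81% at the same thinned depth, with median depths before thinning of 15361 to 30979 UMIs against 9508.5 to 13814 UMIs in supporting cells. The shares in supporting cells were thus far above this level at each stage. Counts in supporting cells were spread slightly wider than a Poisson draw, with a variance of 1.23 to 1.40 times the mean and at most 12 UMIs in a thinned cell.

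**Figure D2:**
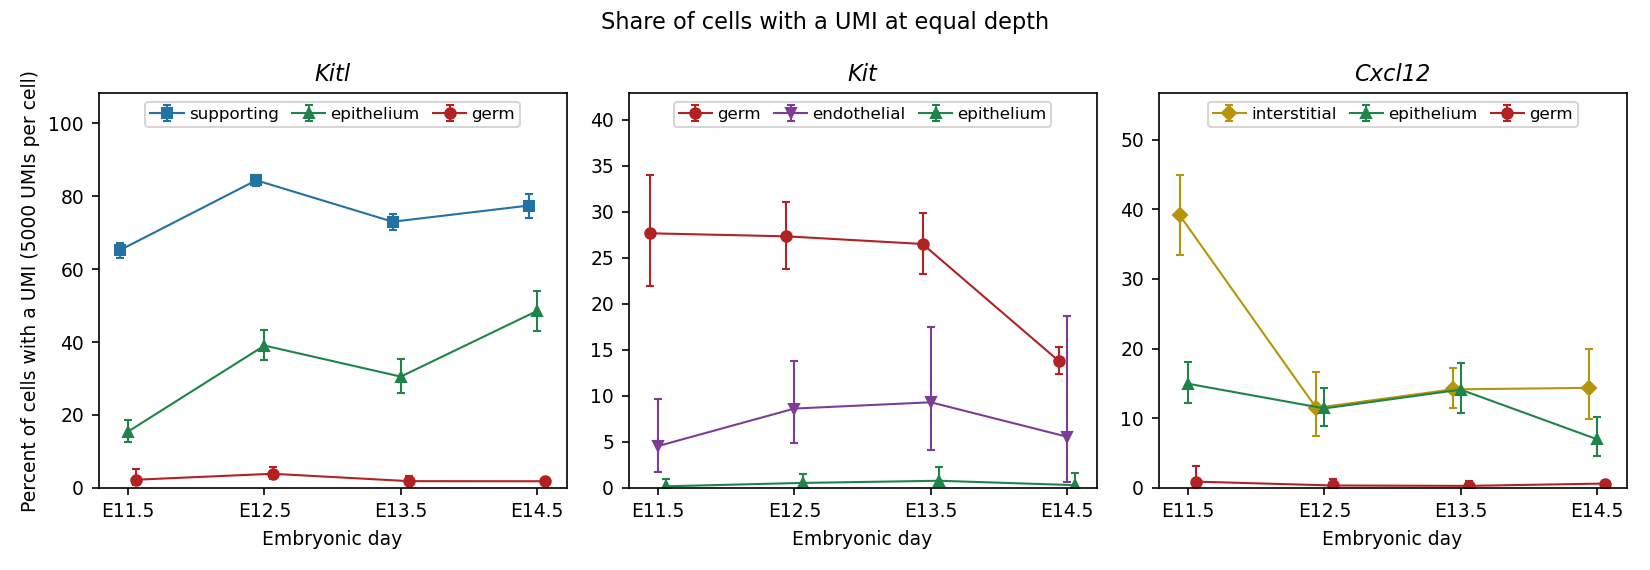
Percent of cells with at least 1 UMI of Kitl, Kit or Cxcl12 by embryonic day after thinning each cell to 5000 UMIs, with Clopper-Pearson 95% bars. Supporting cells held Kitl in 65.2% to 84.4% of cells, germ cells held Kit in 27.7% at E11.5 and 13.8% at E14.5, and interstitial cells held Cxcl12 in 39.1% at E11.5 and 14.4% at E14.5.

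Among supporting cells, Kitl in CPM was lower in those that were cycling (at least 2 UMIs over Mki67, Top2a, Cdk1, Ccnb1 and Cenpf after thinning). The cycling cells held 172, 349, 208 and 219 CPM in stage order and the rest 247, 430, 285 and 362 CPM. The log2 ratio of cycling over other cells was -0.53 (-0.65 to -0.41), -0.30 (-0.41 to -0.20), -0.46 (-0.68 to -0.24) and -0.73 (-0.97 to -0.49). Supporting cells with a UMI of Pax8, which encodes a paired-box transcription factor, also held less Kitl, at 204, 343, 216 and 235 CPM against 242, 427, 286 and 357 CPM without one. Both splits had the same direction in all 4 libraries, and no interval of the ratio included 0. With cycling read on all UMIs of a cell instead of 5000, the cycling ratios kept this direction at -0.21, -0.20, -0.16 and -0.44. In the thinned split, cycling cells had median depths of 16465, 15130, 12717.5 and 13172 UMIs in stage order. The rest had 13692, 11587, 10471.5 and 9390 UMIs. CPM divides by this depth, and the part of depth in the lower values of cycling cells was not tested.

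Kit, the receptor, was highest in germ cells among the 5 classes up to E13.5. In stage order germ cells held 53.6 CPM (48.4 to 59.2), 61.1 CPM (57.4 to 64.9), 59.4 CPM (55.9 to 63.0) and 33.9 CPM (32.0 to 35.8). The first 3 libraries overlapped in their intervals, and E14.5 lay below all of them. From E13.5 to E14.5 the log2 difference was -0.81 (-0.93 to -0.69), short of the ratio of 2, where 2.62% of genes tested were called lower in germ cells and 8.53% higher. The median gene tested in that step differed by 0.15. The thinned share of germ cells with a Kit UMI was 27.7%, 27.3%, 26.5% and 13.8%, against 0.166% to 0.769% in epithelial cells, where Kit was at most 1.83 CPM.

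Endothelial cells, which are known to express KIT in some vascular beds, were the next class, with 15.4, 22.7, 22.7 and 33.3 CPM from 35, 70, 24 and 17 UMIs. At E14.5 germ and endothelial cells did not differ beyond their intervals, with a log2 ratio of 0.02 (-0.66 to 0.81), whereas at E11.5 germ cells were 3.47-fold higher. Interstitial cells held 6.76, 3.97, 4.10 and 6.20 CPM and epithelial cells 0.861 to 1.83 CPM. In supporting cells Kit was 1.17, 4.12, 4.58 and 5.99 CPM, a log2 difference of 2.36 (1.69 to 3.03) from E11.5 to E14.5 on 36 and 45 UMIs. The highest of these values is below the minimum of 20 CPM, so no call could be made. Germ markers in supporting cells were also higher with stage, at 6.27, 8.05, 9.41 and 16.1 CPM. Per UMI of the germ genes Pou5f1, Dppa2, Dppa3, Dppa4 and Tfap2c, supporting cells held 0.187, 0.514, 0.503 and 0.563 UMIs of Kit, and germ cells 0.0430, 0.0513, 0.0579 and 0.0441. The ratio in endothelial cells was 1.71 to 4.25. The part of free RNA or of germ cell transcripts in the Kit values of supporting cells was not tested.

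Germ cells exceeded the pooled somatic classes in Kit by 22.8-fold, 12.6-fold, 12.7-fold and 5.86-fold in stage order. Kit was called higher in germ cells in all 4 libraries, as were 12.3%, 14.9%, 18.2% and 18.5% of genes tested. Germ cells held 60.6%, 74.4%, 78.0% and 77.7% of all Kit UMIs of a library. Outside the 5 classes, erythroid-like cells (by a marker rule with Alas2, Slc4a1, Klf1, Rhd and Hemgn among its genes) held 146 Kit UMIs at E14.5, or 8.87% of the library, at 25.1 CPM (21.2 to 29.6). KIT is known to act in red cell precursors. Immune-like cells held 8.82, 18.9, 55.9 and 47.2 CPM in 37, 15, 31 and 31 cells, and genes of mast cells or blood progenitors (Cpa3, Gata2, Cd34 and Ms4a2) summed there to 128, 128, 595 and 2661 CPM.

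**Figure D3:**
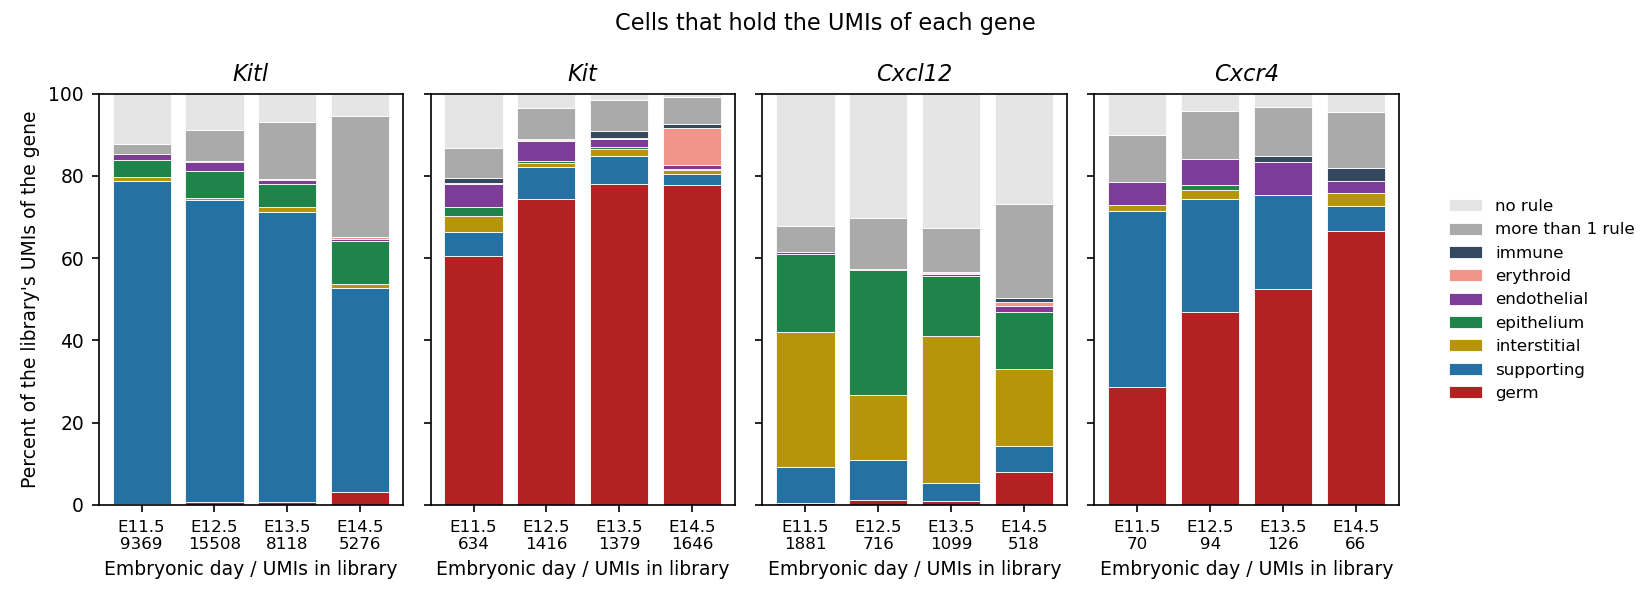
Percent of each library's UMIs of a gene that lay in cells of each class, with the total UMIs of the gene under each bar. Supporting cells held 78.5% of Kitl at E11.5 and 49.5% at E14.5, and made up 44.1% and 13.9% of kept cells. Cells that met several rules were kept apart and held 2.34% and 29.4% of Kitl at these stages. Of cells that met the supporting rule, 4.56% at E11.5 and 41.8% at E14.5 also met another. The part of this overlap in the Kitl shares was not tested. Germ cells held 60.6% to 78.0% of Kit, and cells that met no rule 26.8% to 32.7% of Cxcl12.

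Within the E14.5 library, Kit was lower in germ cells with transcripts of meiotic genes. Germ cells with a thinned UMI of Stra8, the retinoic acid target that marks meiotic entry, held 31.5 CPM (29.6 to 33.5) in 2000 cells, and those without held 47.2 CPM (41.7 to 53.1) in 271 cells. Germ cells with Sycp3, which encodes a protein of the synaptonemal complex, held 27.7 CPM (25.5 to 30.0) against 42.8 CPM (39.6 to 46.2) without. Those with Pou5f1, the pluripotency factor, held 38.8 CPM (36.1 to 41.6) against 28.2 CPM (25.7 to 30.8) without. The log2 ratios were -0.58 (-0.78 to -0.38) for Stra8, -0.63 (-0.79 to -0.47) for Sycp3 and 0.46 (0.30 to 0.63) for Pou5f1. These cells share a library, so the difference between libraries does not enter. Cells with Stra8 had a median of 14917.5 UMIs and those without 19604, and the part of depth in these values was not tested.

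Taking Pou5f1 and Sycp3 together gave 4 groups at E14.5. Kit was 46.0 CPM (42.0 to 50.3) in cells with Pou5f1 only, 36.0 CPM (31.0 to 41.7) with neither, 31.1 CPM (27.7 to 34.8) with both and 25.0 CPM (22.4 to 28.0) with Sycp3 only. The first group lay above the other 3, and the last overlapped slightly with the cells that had both. At E13.5 the same 4 groups lay between 55.2 and 60.7 CPM with overlapping intervals. Stra8 did divide the E13.5 germ cells, with 52.2 CPM (46.3 to 58.6) in cells with a UMI and 62.5 CPM (58.2 to 67.0) in cells without, a log2 ratio of -0.26 (-0.46 to -0.06). Even the Pou5f1-only cells of E14.5 were below those of E13.5, which held 59.8 CPM (54.7 to 65.3). The Pou5f1 split alone went the other way at E12.5, with 55.8 CPM in cells with a UMI and 66.1 CPM in cells without. Its log2 ratio there was -0.24 (-0.42 to -0.06), or -0.38 (-0.79 to 0.06) with Pou5f1 read on all UMIs. At E11.5 and E13.5 the interval of that ratio included 0.

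**Figure D4:**
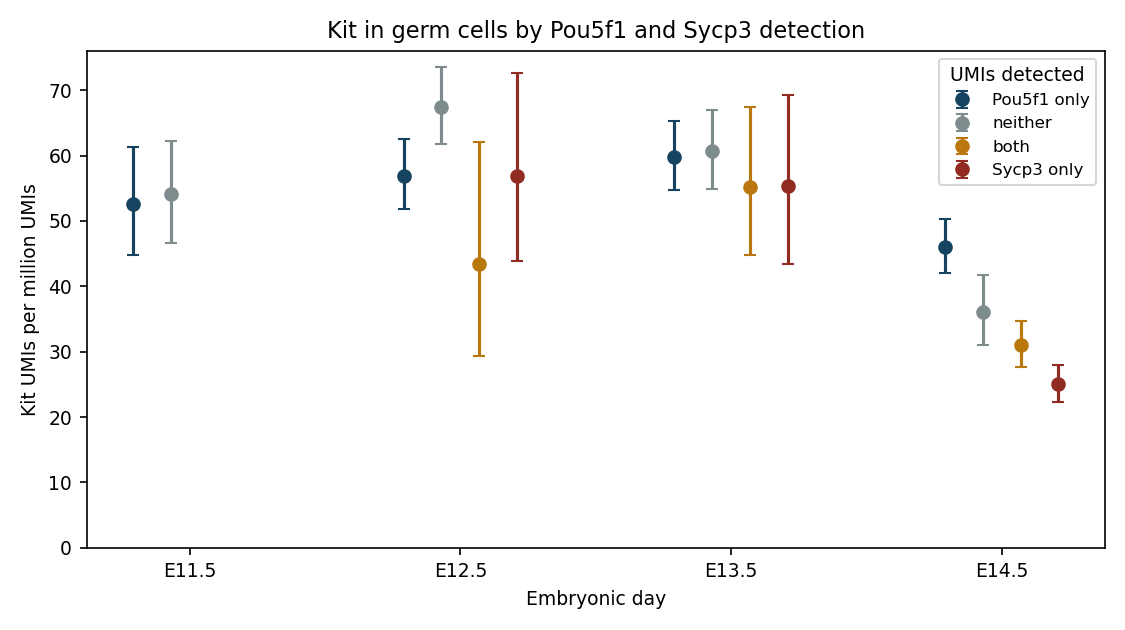
Kit level in germ cells, in CPM, by embryonic day and by detection of Pou5f1 and Sycp3 at 5000 UMIs per cell, with Poisson 95% bars and groups of fewer than 20 cells left out. At E14.5 the level was 46.0 CPM with Pou5f1 only and 25.0 CPM with Sycp3 only, while the 4 groups of E13.5 overlapped.

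Cxcl12, the ligand of the second pair, was highest in interstitial cells. In stage order they held 161 CPM (148 to 174), 37.7 CPM (31.1 to 45.3), 67.2 CPM (60.7 to 74.1) and 43.0 CPM (34.9 to 52.4). The E11.5 library was far above the rest, and E12.5 and E14.5 overlapped. The log2 difference from E11.5 to E12.5 was -2.09 (-2.39 to -1.80) and from E11.5 to E14.5 -1.90 (-2.23 to -1.59), both called lower, where 1.77% and 3.43% of genes tested in interstitial cells were called lower and 2.35% and 3.88% higher. Epithelial cells were second, at 36.2, 26.6, 32.7 and 19.3 CPM, with a difference of -0.90 (-1.29 to -0.54) over the same span. Supporting cells held 5.32, 2.60, 2.32 and 4.39 CPM and germ cells 0.464 to 1.12 CPM. Endothelial cells held 8, 2, 6 and 8 UMIs, or 3.53, 0.647, 5.67 and 15.7 CPM. At E14.5 the interstitial check markers in that class summed to 72.5 CPM, against 17.5 to 28.2 CPM before, and their part in the value was not tested.

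Interstitial cells exceeded supporting cells in Cxcl12 by 4.92, 3.86, 4.86 and 3.29 on the log2 scale in stage order, and epithelial cells by 4.44-fold, 1.42-fold, 2.06-fold and 2.23-fold. Germ cells were below the somatic classes by 13.8-fold to 31.1-fold. At E11.5, where the minimums were met, Cxcl12 was called lower, as were 32.0% of all genes tested in that comparison. Interstitial cells held 32.9%, 15.9%, 35.8% and 18.7% of all Cxcl12 UMIs. Cells that met no rule held nearly as much or more, 32.2%, 30.3%, 32.7% and 26.8%, at 37.7, 23.6, 49.2 and 37.1 CPM. Pericyte genes (Rgs5, Cspg4, Pdgfrb, Notch3 and Kcnj8) summed to 153, 166, 125 and 104 CPM in interstitial cells in stage order, and their part in the Cxcl12 values was not tested.

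The interstitial class was uneven in Cxcl12. The thinned share of cells with a UMI was 39.1%, 11.48%, 14.1% and 14.4% in stage order, against 0.282% to 0.893% in germ cells. After thinning, the variance was 3.10, 2.44, 4.51 and 1.82 times the mean in stage order, and 60.9% of cells were at 0 at E11.5 where a Poisson draw of the same mean would leave 40.1%. Cells with a UMI of Lum, which encodes the matrix proteoglycan lumican, held 371 CPM against 135 CPM without at E11.5, 185 against 56.0 CPM at E13.5 and 105 against 23.8 CPM at E14.5. The log2 ratios were 1.46 (1.18 to 1.72), 1.72 (1.37 to 2.06) and 2.15 (1.54 to 2.76). At E12.5 fewer than 20 cells held Lum, so no value is given. Cells with Nr2f2, which encodes the nuclear receptor COUP-TFII, held 188 against 75.5 CPM at E11.5, 41.9 against 18.5 CPM at E12.5 and 77.1 against 30.4 CPM at E13.5. At E14.5 they held 43.6 against 41.1 CPM, a log2 ratio of 0.09 (-0.62 to 0.84). With Nr2f2 read on all UMIs, the E13.5 values were 67.2 against 66.0 CPM, a log2 ratio of 0.026 (-0.57 to 0.69), and at the other stages fewer than 20 cells lacked it. With Lum read on all UMIs the ratios were 1.58, 1.56 and 1.64. Pdgfra, the receptor for platelet-derived growth factor A, gave log2 ratios of 0.32 (0.07 to 0.57) at E11.5 and -0.80 (-1.14 to -0.47) at E13.5, but -0.012 (-0.25 to 0.22) and -0.16 (-0.46 to 0.13) when read on all UMIs, so neither difference was kept.

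**Figure D5:**
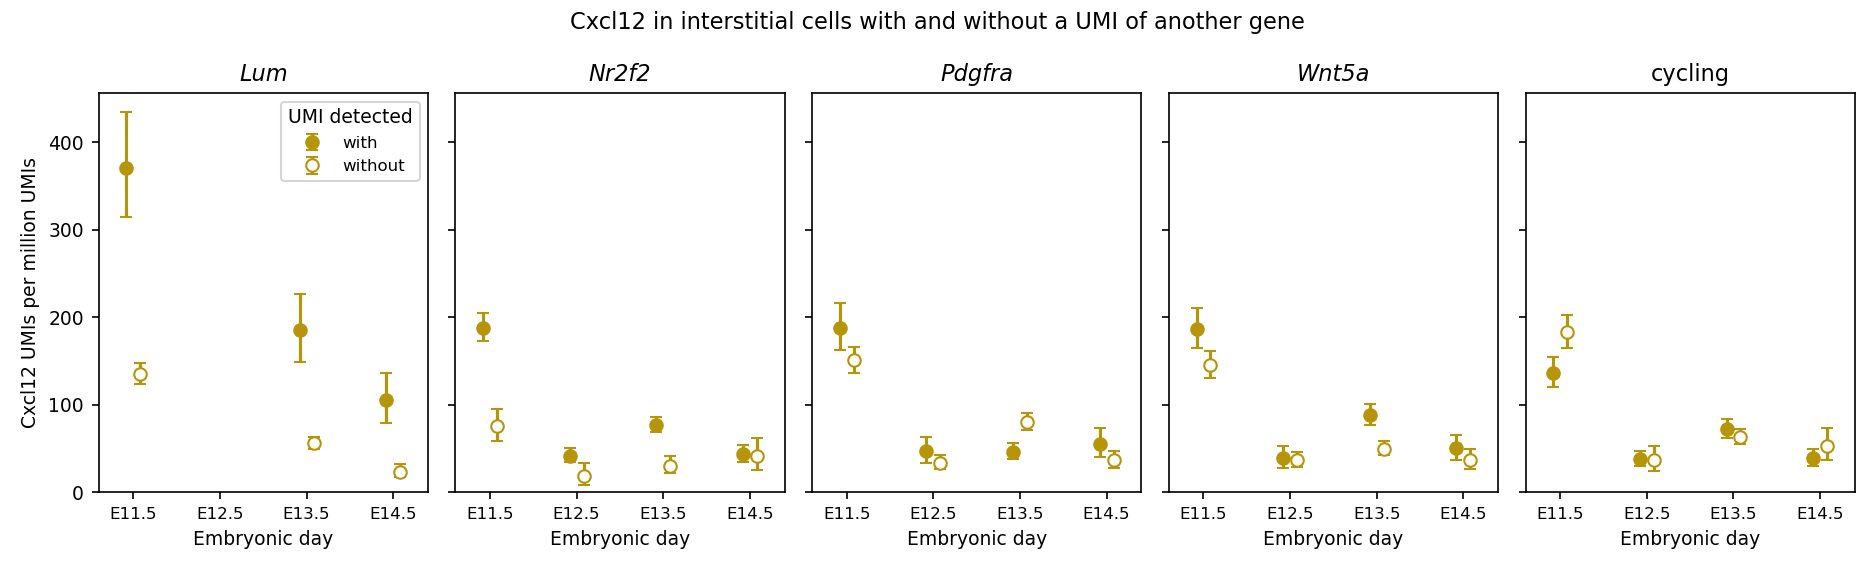
Cxcl12 level in interstitial cells, in CPM, by embryonic day in cells with (filled) and without (open) a UMI of Lum, Nr2f2, Pdgfra or Wnt5a, or with and without at least 2 UMIs of cycling genes, at 5000 UMIs per cell with Poisson 95% bars. Cells with Lum lay above those without at the 3 stages with at least 20 such cells, at 371 against 135 CPM at E11.5.

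Cxcr4, the receptor of the second pair, was sparse, and its highest level in any class was 9.44 CPM. Germ cells held 20, 44, 66 and 44 UMIs, or 2.79 CPM (1.70 to 4.31), 2.55 CPM (1.85 to 3.42), 3.64 CPM (2.82 to 4.64) and 1.17 CPM (0.847 to 1.56). The E14.5 value lay below the others, with a log2 difference from E13.5 of -1.65 (-2.23 to -1.07). No class reached the minimum of 20 CPM, so no call was possible. Germ cells exceeded the pooled somatic classes by 3.73-fold at E11.5, 3.00-fold at both E12.5 and E13.5, and 2.04-fold at E14.5, where the interval of the log2 ratio, -0.07 to 2.33, included 0. Supporting cells held 0.974, 0.964, 1.43 and 0.533 CPM, and endothelial cells 1.76, 1.94, 9.44 and 3.92 CPM from 4, 6, 10 and 2 UMIs. At E13.5 endothelial cells were above germ cells by 1.37 on the log2 scale (0.25 to 2.34), and at the other stages the interval included 0. Epithelial cells held 0, 1, 0 and 0 UMIs. Of all Cxcr4 UMIs of a library, germ cells held 28.6%, 46.8%, 52.4% and 66.7% in stage order. The more numerous supporting cells of E11.5 held a larger share, 42.9%, and at the later stages 27.7%, 23.0% and 6.06%.

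After thinning, 2.23%, 1.85%, 1.69% and 0.440% of germ cells held a Cxcr4 UMI, against 8.04%, 6.21%, 8.60% and 1.89% unthinned, and 0.153% to 0.759% of supporting cells. Within E14.5, germ cells with Pou5f1 held 1.53 CPM and those without 0.742 CPM, on 31 and 13 UMIs, a log2 ratio of 1.05 (0.07 to 2.10), but with Pou5f1 read on all UMIs it was 0.57 (-0.69 to 2.10), which includes 0. The ratio for Sycp3 was -0.66 (-1.58 to 0.26) and for Stra8 -0.89 (-1.91 to 0.24), both with 0 inside the interval, and the Stra8 ratio was 0.20 when read on all UMIs. Ackr3, the scavenger receptor for CXCL12, held at most 2 UMIs in germ cells of any library.

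Other genes of both pathways were read from lists of 47 genes for KIT signalling, 33 for CXCL12 signalling and 15 for germ cell migration and adhesion. In germ cells 25 genes of the KIT list met the minimums from E11.5 to E14.5, with 6 called higher and 4 lower, where 22.8% of all genes tested were called higher and 8.44% lower. Those called higher included Sos1, which encodes an exchange factor, the SRC-family kinase gene Yes1, Socs6 and Adam10. Adam10, which encodes a membrane protease, went from 5.44 to 27.9 CPM. Those called lower were Ptpn6, which encodes the phosphatase SHP-1 that dampens KIT, Pik3cd, Akt1 and Mapk3. Akt1 went from 45.2 to 22.5 CPM and Ptpn6 from 65.3 to 30.3 CPM. The median log2 difference of the 25 genes was -0.12, against 0.29 for all genes tested, and both include Kit itself.

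In the CXCL12 list 14 genes met the minimums in germ cells, with Rgs10, a regulator of G protein signalling, called higher (3.91 to 29.7 CPM) and Gnai2, an inhibitory G protein subunit gene, called lower (230 to 97.7 CPM). The median of the 14 was 0.21. Of all genes tested in germ cells from E11.5 to E14.5, 22.8% were called higher and 8.44% lower. Of the migration and adhesion list 7 met the minimums. Cd9, a tetraspanin gene, was called higher (29.4 to 79.7 CPM), and Nanos3, needed for germ cell survival, was called lower (36.3 to 9.43 CPM). Ifitm1 and Ifitm3, interferon-induced membrane protein genes of early germ cells, were called lower as well, from 1050 to 487 CPM and from 1173 to 325 CPM. The median of the 7 was -0.69.

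Somatic cells gave fewer calls, in these lists and over all genes tested alike. In either direction, 31.2% of all genes tested were called in germ, 9.36% in supporting and 7.31% in interstitial cells. In supporting cells 26 genes of the KIT list met the minimums and 1 was called higher, Mapk3 (55.6 to 113 CPM), and of 13 in the CXCL12 list 0 were called, where 6.00% of all genes were called higher and 3.36% lower. Of 8 migration genes, Wnt5a was called higher (9.45 to 22.2 CPM), and Gja1 (131 to 59.0 CPM) and Ifitm1 (3307 to 1578 CPM) were called lower. In interstitial cells 24, 16 and 7 genes met the minimums, where 3.88% of genes tested were called higher and 3.43% lower. Ptpn11 (40.8 to 95.3 CPM), Grk5 (a log2 difference of 1.01) and Rgs10 (1.08) were called higher there. Map2k1 (43.9 to 20.4 CPM) and Cdh2 (31.5 to 9.75 CPM) were called lower beside Cxcl12.

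The genes most like each member were found over the 20 class and stage profiles as the highest Pearson correlations of log2(CPM + 1) among 8710 genes, a description only, since profiles of 1 class or library share cells and depth. For Kitl they were Csgalnact1 (r = 0.97), Prr13, Reep1, Zfp703 and Sfxn3, each highest in supporting cells. For Kit they were Polg (0.94), Helz, Prdm1, Crlf2 and 2610305D13Rik. Cxcl12 was most like Cd248 (0.96), 0610030E20Rik, St8sia2, Unc5c and Tcf21, the last of which is part of the interstitial rule. For Cxcr4 they were Sptan1 (0.87), Ankrd13a, Prdm1, Mfsd5 and Foxo1, where its own counts are few. With log2(CPM + 10) instead, 4 of the 5 genes stayed for Kitl and 3 of 5 for each of the other members, and the first in rank became 2610305D13Rik for Kit, Efna5 for Cxcl12 and Mfsd5 for Cxcr4.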

How the data were processed

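Gonad cells of 4 libraries were made by the authors with the 10x 3′ kit, and the submitters' processing notes name Cell Ranger 2.2.0 and mm10, the build of GENCODE M21 and RefSeq GRCm38.p6. The deposited values are natural log values, ln(1 + UMIs / UMIs of the cell × 10000), a unit read from the values themselves. All 69792436 values above 0 (100%) were whole UMIs at a relative tolerance of 1e-06, so counts were used throughout. The count test planned for replicated samples does not apply to 1 library per stage. Cells over 20% mitochondrial UMIs (3, 1, 1 and 0) and doublets called by Scrublet in scanpy 1.11.5 (2.44%, 2.17%, 1.96% and 1.96%) were left out. The deposited cells held 80377418, 78223391, 69458291 and 72506090 UMIs, and 175 barcodes occurred in more than 1 library (354 cells). Intervals are exact Poisson, binomial split or Clopper-Pearson at 95%. A count of 0 is given with a floor of 3 UMIs over the class.

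The call rule was run on simulated counts for E11.5 against E14.5 with 200 genes changed 3-fold, more than the ratio of 2 it asks for. The counts were Poisson draws from 1 pooled profile per class, and the changed genes came from those well above the minimums. No difference between libraries was simulated, so the run covers counting error only and cannot tell how often such a difference is called. In germ cells 5263 genes were tested, the rule recovered 100% of genes set higher and 100% of genes set lower and called 0 of the rest. The same held for supporting cells with 5532 genes. In interstitial cells, with 5820 genes, it recovered 100% and 98% and called 1 of the 5620 others. Named genes are the 4 members, called genes of the 3 lists, and the 5 genes most like each member. A few genes of these lists and of the class rules are not reported here. The members and lists were chosen with earlier results of these data known. Alternatives were other class rules, depths, scales and thresholds.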

Additional observations from a re-analysis of the deposited data

Results flagged for a closer look

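Kit went in opposite directions between E11.5 and E14.5 in 2 pairs of classes. It was higher at E14.5 in supporting cells (2.36 on the log2 scale, on 36 and 45 UMIs) and lower in germ cells (-0.66), a gap of 3.02. In endothelial cells it was higher at E14.5 too (1.11, on 35 and 17 UMIs), a gap of 1.77 to germ cells. Kit in supporting cells was at most 5.99 CPM, too low for a call, and germ markers there, Sycp3 among them, went from 6.27 to 16.1 CPM. Pou5f1, Dppa2, Dppa3, Dppa4 and Tfap2c together went from 6.27 to 10.7 CPM in supporting cells. Per UMI of these genes, supporting cells held 0.187 and 0.563 UMIs of Kit, and germ cells 0.0430 and 0.0441. The part of germ cell transcripts in the Kit values of supporting cells was not tested. Cxcl12 was higher at E14.5 in endothelial cells (2.15, on 8 and 8 UMIs) and lower in interstitial cells (-1.90), a gap of 4.05, and lower in epithelial cells (-0.90), a gap of 3.06. Each interval excluded 0, but with 1 library per stage none of these differences was tested.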

How the results depend on the processing

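Of the values recomputed under an alternative, 537 stayed within their 95% counting interval or, for counts of genes, within 1.5 times, 213 moved further, and 1 with an interval apart from 0 changed its sign, Cxcl12 by Pdgfra in interstitial cells at E11.5 (-0.012 with states read on all UMIs, from 0.32). With cells that met more than 1 rule counted in each class, the Kitl differences in supporting cells were 0.76 for E11.5 to E12.5, 0.13 for E13.5 to E14.5 and 0.29 for E11.5 to E14.5, and supporting over interstitial at E14.5 was 2.45. Under that setting Kit germ over somatic was 4.13 at E11.5 and 2.004 at E14.5, Cxcl12 interstitial over supporting 4.33 and 2.39, and the E14.5 share of supporting cells with Kitl 70.4%. With class rules read at 5000 UMIs, Kit germ over somatic at E11.5 was 4.85, Cxcr4 germ over somatic at E14.5 2.49, Cxcl12 interstitial over supporting at E11.5 5.53 and the Kitl step to E12.5 0.78. The E11.5 shares were then 0% for Cxcr4 in germ cells, 46.5% for Cxcl12 in interstitial cells and 68.0% for Kitl in supporting cells. With at least 4 markers that Kitl step was 0.75. With doublets kept, Cxcl12 interstitial over supporting at E11.5 was 4.66. With cells of at least 10000 UMIs only, that ratio at E14.5 was 2.53, the Cxcl12 step to E12.5 -1.80 and the Kitl step from E12.5 to E13.5 -0.66. On the median-of-ratios scale the Kit differences in germ cells were -0.98 from E13.5 and -1.001 from E11.5 to E14.5, those of Kitl in supporting cells 0.21 and 0.38, and Kit germ over somatic at E11.5 5.03. With states read on all UMIs, the Kit ratio for Pou5f1 at E14.5 was 0.83, and the E13.5 Cxcl12 ratios in interstitial cells went from 1.34 to 0.026 for Nr2f2, from -0.80 to -0.16 for Pdgfra and from 0.83 to 0.34 for Wnt5a. Ratios whose interval included 0 could change sign there too, as Cxcr4 by Stra8 at E14.5 (0.20) and Cxcl12 by Pdgfra at E12.5 (-0.15). The cause of these moves was not tested.

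Shares depend on depth by construction. Unthinned at E11.5 and E14.5 they were 91.1% and 90.5% (Kitl), 80.4% and 39.0% (Kit), 51.0% and 24.3% (Cxcl12) and 8.04% and 1.89% (Cxcr4). At 2000 UMIs they were 35.9% and 46.9%, 12.1% and 6.30%, and 20.1% and 6.44%, and 0.0881% for Cxcr4 at E14.5. Genes called higher and lower from E11.5 to E14.5 numbered 1302 and 482 in germ cells, 362 and 203 in supporting, 235 and 208 in interstitial and 296 and 108 in epithelial cells. At a ratio of 1.5 they were 2143 and 972, 895 and 629, 519 and 706, and 703 and 559. At a ratio of 4 they were 384 and 103, 93 and 74, 44 and 36, and 78 and 20. With no CPM minimum they were 3510 and 1054 in germ, 1193 and 523 in supporting, 315 lower in interstitial, and 603 and 234 in epithelial cells. With cells whose barcode occurs in another library left out, an alternative chosen after seeing the data, the differences of the 4 genes from E11.5 to E14.5 stayed within their intervals.

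No paired analysis was possible because each stage has 1 library, and for the same reason no library could be left out. The Foxl2 split of supporting cells left fewer than 20 cells on a side and gave no value. Depth limits Cxcr4 most, with 66 to 126 UMIs in a whole library, and endothelial cells at E14.5, with 36 cells.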
